A study of Mus musculus with 8 samples.

Results

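The regulatory carboxypeptidases were followed here around Cpxm2, a gene whose signal had stood higher in infarcted mouse hearts in an earlier analysis of the same arrays. The set held 9 of the 13661 genes with a probe of their own on the array, Cpxm2, Cpxm1, Aebp1, Cpe, Cpd, Cpm, Cpz, Cpn1 and Cpa3. Their members were the 11 probes, of 33600 on the array, whose only gene symbol was one of these 9. Cpxm2 had 3 probes and each of the other genes had 1. The infarcted group was made of 4 hearts of C57Bl/6 mice aged 8 to 10 weeks whose left coronary artery had been ligated for good at its descending branch. The sham control group was made of 4 hearts of mice of the same strain and age that were operated on without ligation. RNA of each whole heart, so of scar and spared muscle together, went onto 1 spotted array with 70-mer probes, beside a pooled RNA of several adult mouse tissues. How long after ligation the hearts were taken is unknown here.

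Metallocarboxypeptidases are zinc enzymes that remove amino acids one at a time from the carboxyl end of peptides and proteins. The regulatory branch prefers the basic residues lysine and arginine, and it trims prohormones in the secretory pathway and active peptides outside the cell. Cpxm2, Cpxm1 and Aebp1 carry a discoidin domain and lack residues needed for catalysis, so that they are known as binding proteins of the matrix and not as enzymes. Cpa3, the carboxypeptidase of mast cell granules, belongs to the digestive branch of the same family and was kept because the set named it.

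All levels below are the deposited log2 values, read as the signal of 1 dye channel relative to the median of the 700 spots in the probe's block, so that a level of 0 is the median spot of the block. A level of one probe is not set against that of another probe. Between 21916 and 23655 spots had a value on the infarcted arrays and between 19704 and 24819 on the sham control arrays. The channel is not stated, and the heart channel was assumed. Genes of heart muscle were bright on the infarcted arrays, from a mean level of 3.48 for the calcium release channel Ryr2 to 7.07 for myoglobin, Mb, which had a value on 2 of them. The reference pool was taken to hold heart as well, so bright heart genes cannot tell the channels apart. On the sham control arrays Ryr2 had a mean level of 3.46. Mb, Myl3 and 1 of 2 Actc1 probes had no value on any of them, and Myl2, Tnni3 and the other Actc1 probe had a value on 1. These single levels were 7.10, 6.56 and 6.64, against infarcted means of 6.16, 5.68 and 6.27. Tnnt2, Ckm and Pln, with 2 or 3 sham control values, had means there of 6.68, 6.65 and 6.30, against infarcted means of 6.13, 5.96 and 6.57. The missing values thus fell among bright genes. Of 10 heart muscle probes 3 could thus be tested, with 0 called. Genes of other tissues in the reference pool were not dark either. The 15 tested probes of liver, stomach, lung and testis genes had mean levels from -0.59 to 3.46 on the infarcted arrays and from -0.43 to 4.70 on the sham control arrays, and 15 of 15 were lower on the infarcted arrays. Their median difference was -1.22, and 1 of them passed the test, Prm2 of testis at -1.69 ± 0.26 (SE, limma adjusted p = 0.0265). The 7 tested brain probes had 3 positive and 4 negative differences with a median of -0.03, and 0 kidney probes could be tested. Whether signal of the reference RNA entered the deposited values was not tested. If the values held the reference channel, the differences below would not concern RNA of the compared hearts.

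Of the 11 member probes, 8 probes of 7 genes had a value on all 8 arrays and entered the comparison. One Cpxm2 probe, spot 101, had no value on any array. The probes of Cpz and Cpa3 had values on too few sham control arrays for a difference. The genes with a usable probe were thus Cpxm2, Cpxm1, Aebp1, Cpe, Cpd, Cpm and Cpn1.

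The set was chosen by the infarcted minus sham difference of Cpxm2, taken as the mean over its probes, so that difference is given as a description and supports nothing by itself. With its 2 measured probes averaged it was higher by 1.66 ± 0.27 on the log2 scale in infarcted hearts (SE, limma adjusted p = 0.0355), where 0.0554% of all genes and unnamed spots passed as higher. It lay inside the threshold of an adjusted p under 0.05, and the member next to it, Cpe, lay outside at 0.0908. The gene spans chr7:132032687-132154765 of GRCm38.p6, and where in it the probes lie was not analysed here. Taken probe by probe, spot 5701 had levels of 1.04, 0.98, 1.13 and 1.51 on the infarcted arrays, against -0.34, 0.04, -1.28 and -1.19 on the sham control arrays. The infarcted arrays lay close together above the block median, whereas the sham control arrays split into replicates 1 and 2 near the median and replicates 3 and 4 well below it. The lowest infarcted level exceeded the highest sham control level by 0.94. The mean was 1.16 ± 0.24 in infarcted hearts and -0.69 ± 0.65 in sham hearts (SD, n = 4 each), a difference of 1.86 ± 0.33 (SE) or 3.62-fold, with an adjusted p of 0.0392 in limma's fit across all probes.

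The second measured probe of Cpxm2, spot 29529, differed in the same direction. Its levels were -0.98, -0.76, -0.36 and 0.28 on the infarcted arrays, against -1.84, -1.98, -2.08 and -1.78 on the sham control arrays. Here the sham control arrays lay close together and the infarcted arrays spread out, the reverse of spot 5701. The sham control levels were near the dim end, with 11.5% to 17.5% of the values on their array below them. The narrow sham control spread and the fold below thus rest on dim values. The mean was -0.45 ± 0.56 in infarcted hearts and -1.92 ± 0.14 in sham hearts (SD, n = 4 each). The difference was 1.46 ± 0.29 (SE) or 2.76-fold, and its limma adjusted p of 0.0535 lay just outside the threshold. Among all 20561 probes tested, the difference of spot 5701 ranked 23 from the highest and that of spot 29529 ranked 65. Both probes are annotated to the same transcript and met the same RNA, so they are not replicates of the condition. Over the 8 arrays their levels had a Pearson r of 0.88, and r was 0.33 once each group's mean was taken off, both as descriptions. The call of spot 5701 was lost after quantile normalization (1.93 ± 0.34, adjusted p = 0.0702), and it was lost without any one infarcted array or without sham control replicate 1 or 3 (1.66 to 1.98, adjusted p = 0.0677 to 0.139). On both probes infarcted replicate 4 had the highest level of its group and sham control replicate 3 the lowest of its group.

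**Figure D1:**
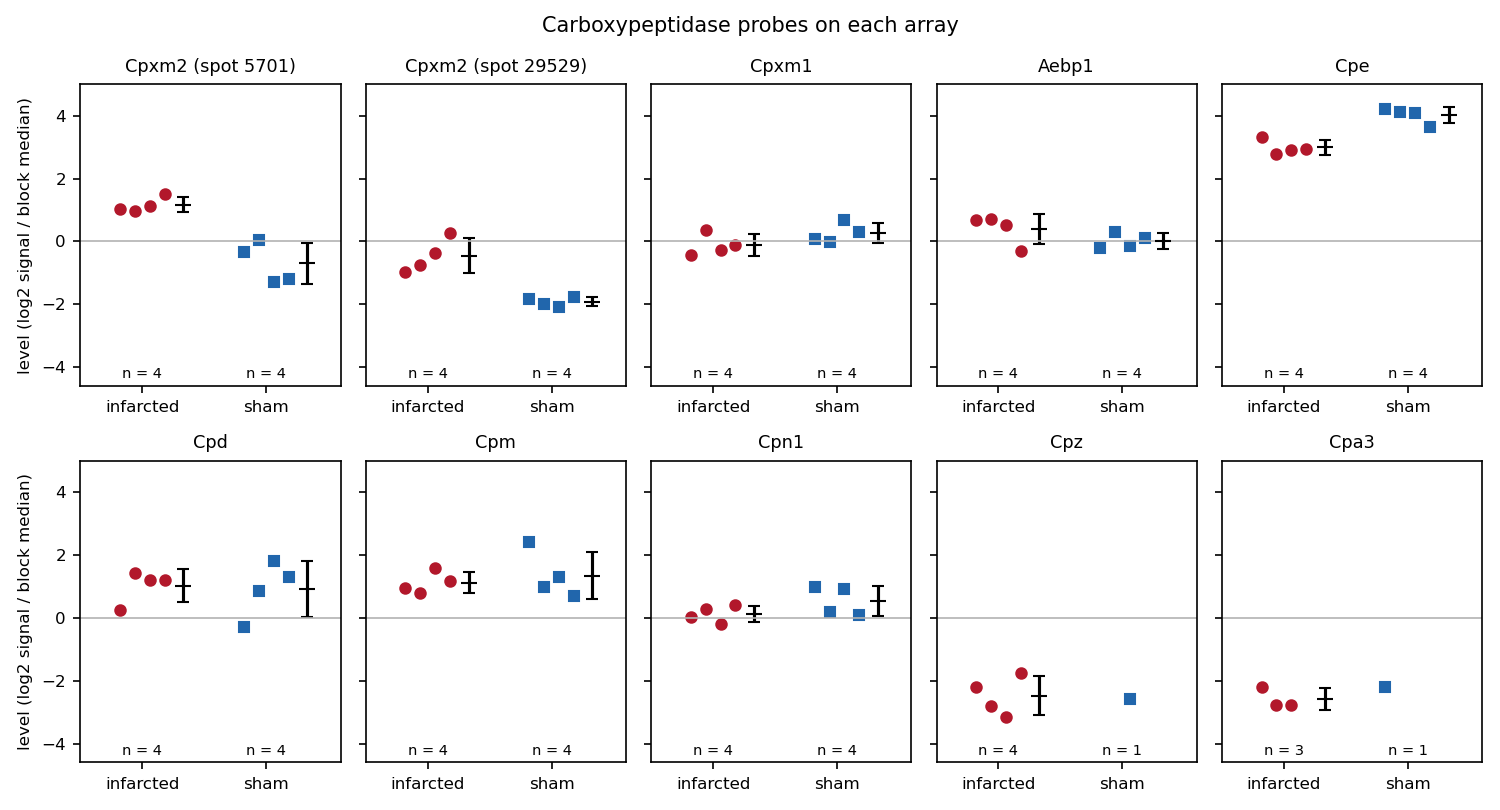
Level of each measured carboxypeptidase probe on every array, as log2 signal over the block median (vertical axis), with infarcted arrays as red circles left of sham control arrays as blue squares. Black bars are the mean ± SD of a group, n is the number of arrays with a value, and the groups stand apart on the 2 Cpxm2 probes and on Cpe.

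The signals behind these levels were modest. At spot 5701 the recovered scanner signal was 1017, 828, 1036 and 983 on the infarcted arrays, against 511, 403, 125 and 201 on the sham control arrays. At spot 29529 it was 191, 298, 496 and 466 on the infarcted arrays, against 167, 106, 136 and 190 on the sham control arrays. The first spot separated the groups clearly before any scaling. The second separated them by 1 unit of signal, between 191 on infarcted replicate 1 and 190 on sham control replicate 4. The wider gap in levels on the second spot came with the block medians, which were 377 on infarcted replicate 1 and 651 on sham control replicate 4. With the recovered signals centred only by array, an alternative chosen after seeing the data, spot 5701 differed by 1.77 ± 0.45 and spot 29529 by 1.13 ± 0.35 (SE), and neither passed (limma adjusted p = 0.141 and 0.233).

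Spots listed within 10 rows of the Cpxm2 probes did not share the difference. Of the 20 spots listed within 10 rows of spot 5701, the 13 tested ones had differences from -0.85 to 0.47 with a median of -0.28. Around spot 29529 the 10 tested ones ran from -0.89 to 0.52 with a median of -0.18. In neither neighbourhood did any tested spot have infarcted levels all above the sham control levels.

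**Figure D2:**
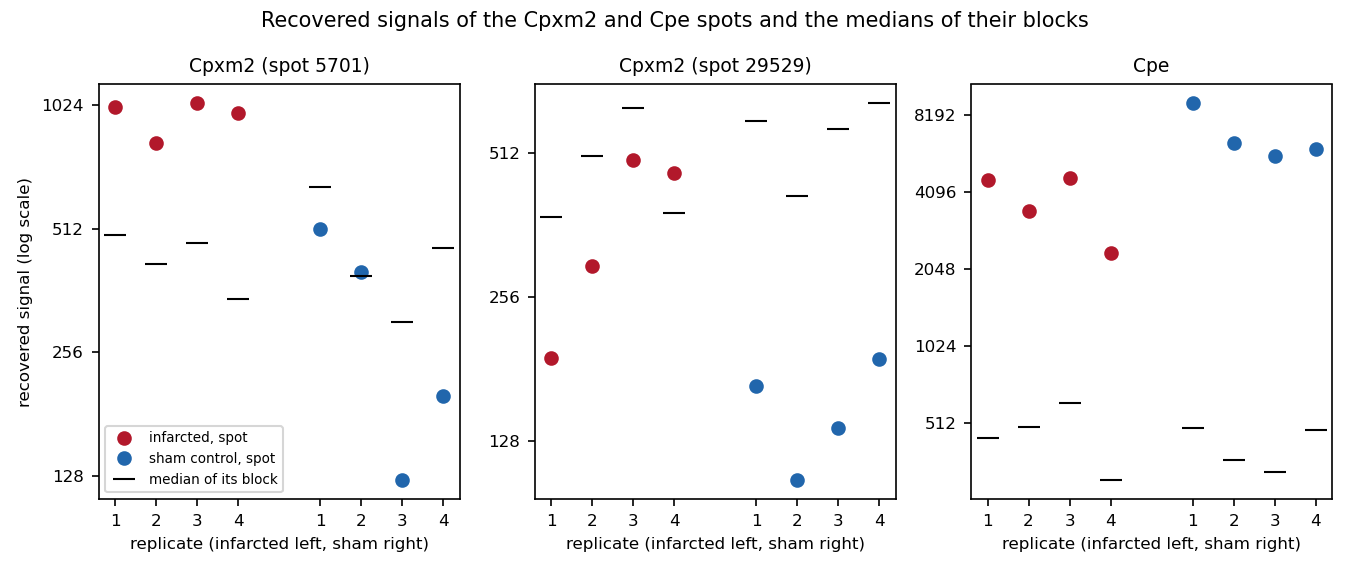
Recovered scanner signal on a log axis for the 2 measured Cpxm2 probes and the Cpe probe, by replicate, with infarcted arrays (red) left of sham control arrays (blue) and black dashes for the median of the surrounding block on that array. The infarcted signals of spot 5701 lie between 828 and 1036, those of spot 29529 begin at 191 beside a sham control signal of 190, and the Cpe signals are lower on every infarcted array.

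Cpxm1, a close relative of Cpxm2 in the set, did not pass the test. Its levels were -0.44, 0.37, -0.27 and -0.10 on the infarcted arrays, against 0.07, -0.03, 0.68 and 0.32 on the sham control arrays. The groups overlapped, and the difference was -0.37 ± 0.26 (SE, limma adjusted p = 0.62), with a 95% interval from -0.95 to 0.21. The interval leaves out increases of the size seen on either Cpxm2 probe, but whether Cpxm1 and Cpxm2 differ in their response was not tested. The sequences before a start of each gene in the RefSeq table are shown because these relatives gave different values. They are RefSeq windows of 250 bases on the minus strand of GRCm38.p6, at chr7:132154742-132154991 for Cpxm2 and chr2:130397630-130397879 for Cpxm1. The last 24 bases of the Cpxm2 window lie inside the annotated span of the gene. Capitals mark the letters GGGCGG (the GC box) and CCAAT, on either strand.

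Cpxm2: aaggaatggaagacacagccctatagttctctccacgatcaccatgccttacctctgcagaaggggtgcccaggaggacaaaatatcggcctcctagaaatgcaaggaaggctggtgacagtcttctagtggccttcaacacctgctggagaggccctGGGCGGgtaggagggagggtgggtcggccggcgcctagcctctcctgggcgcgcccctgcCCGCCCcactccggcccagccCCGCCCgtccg

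Cpxm1: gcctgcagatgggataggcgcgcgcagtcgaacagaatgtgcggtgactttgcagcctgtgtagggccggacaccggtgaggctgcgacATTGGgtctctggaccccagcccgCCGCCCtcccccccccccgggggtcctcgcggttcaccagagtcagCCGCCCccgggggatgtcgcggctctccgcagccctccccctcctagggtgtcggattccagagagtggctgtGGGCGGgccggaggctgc

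Both windows held 3 matches to GGGCGG, which was present in 32.7% of the 32851 windows of this length in the table. The last match ended 5 bases before the end of the window in Cpxm2, within the 24 bases inside the annotated span of the gene, and 12 bases before the end of the window in Cpxm1. Cpxm1 also held 1 match to CCAAT, present in 33.8% of windows, and Cpxm2 held none of those letters. Neither held TATAAA or TGANTCA on either strand, which were present in 12.4% and 6.75% of windows. The bases G and C made up 64% of the Cpxm2 window and 70.8% of the Cpxm1 window, where the median of all windows was 52.4%. No motif overlapped another in these 2 windows, and a match is only a run of letters.

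Aebp1, a secreted protein that binds collagens and is known from smooth muscle and fibrotic tissue, had a value on every array. Its levels were 0.68, 0.72, 0.51 and -0.30 on the infarcted arrays, against -0.22, 0.30, -0.15 and 0.13 on the sham control arrays. The first 3 infarcted arrays lay above all sham control arrays and the last lay below them. The difference was 0.39 ± 0.28 (SE, limma adjusted p = 0.629), with a 95% interval from -0.23 to 1.01. Without infarcted replicate 4 it was 0.62 and did not pass (adjusted p = 0.357).

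Cpe, the enzyme that removes basic residues from prohormones in secretory granules, had a difference of the opposite sign to that of Cpxm2. It lies on chromosome 8 and is known chiefly from neurons and endocrine cells. Its levels were 3.34, 2.80, 2.92 and 2.95 on the infarcted arrays, against 4.22, 4.12, 4.10 and 3.65 on the sham control arrays. All infarcted arrays lay below all sham control arrays. The mean was 3.00 ± 0.23 in infarcted hearts and 4.02 ± 0.26 in sham hearts (SD, n = 4 each), a difference of -1.02 ± 0.23 (SE), or 2.02-fold lower, that did not pass (limma adjusted p = 0.082). An exact two-sided permutation test of its 8 values gave p = 0.0286, the smallest that 4 arrays against 4 allow. Any probe with 8 values and groups that do not overlap gets this p. Of all tested probes 6.33% lay apart with infarcted lower. The recovered signals were 4559, 3458, 4668 and 2372 on the infarcted arrays, against 9116, 6388, 5657 and 6040 on the sham control arrays, without overlap.

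The size of the Cpe difference depended on how bright spots were treated. The 1064 tested probes with a mean level between 3 and 4 had a median difference of -0.30, where that of all probes was -0.07. After quantile normalization, which gives all arrays the same distribution of values, the median of these probes was 0.07 and Cpe stood at -0.64 ± 0.23 (SE, limma adjusted p = 0.385). It stood at -0.60 ± 0.19 after cyclic loess (adjusted p = 0.24). The 15 tested probes of liver, stomach, lung and testis genes had a median difference of -0.86 after quantile normalization, and their part in the Cpe difference was not tested. Of 5 tested probes of neuronal and neuroendocrine markers 3 had a positive difference and 2 a negative one, with a median of 0.03 and 0 called. The mean level of these markers per array ran from -0.16 to 0.66 on the infarcted arrays and from -0.46 to 0.57 on the sham control arrays. Each mean was over the markers with a value on that array, so it was not of the same genes on every array.

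Cpd, Cpm and Cpn1 showed no difference beyond the spread between hearts. Cpd, a membrane enzyme of the trans-Golgi network, had levels of 0.26, 1.45, 1.20 and 1.20 on the infarcted arrays, against -0.29, 0.88, 1.82 and 1.29 on the sham control arrays. Replicate 1 of each group was its lowest array, and the difference was 0.10 ± 0.44 (SE, limma adjusted p = 0.955), with a 95% interval from -0.89 to 1.09. Its sign turned without sham control replicate 1, at -0.30 ± 0.35 (adjusted p = 0.796). An interval this wide leaves room for a change of either sign.

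Cpm, an enzyme anchored to the outer face of the plasma membrane that acts on kinins and other peptides, had levels of 0.97, 0.80, 1.58 and 1.17 on the infarcted arrays, against 2.43, 0.98, 1.30 and 0.70 on the sham control arrays. Sham control replicate 1 was the highest array and the other 7 overlapped. The difference was -0.22 ± 0.37 (SE, limma adjusted p = 0.86), and 0.13 ± 0.27 without that array (adjusted p = 0.896).

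Cpn1 is the catalytic subunit of plasma carboxypeptidase N, made mainly by the liver, which inactivates kinins and complement anaphylatoxins. Its levels were 0.05, 0.27, -0.20 and 0.40 on the infarcted arrays, against 0.99, 0.18, 0.94 and 0.10 on the sham control arrays. Sham control replicates 1 and 3 stood above all infarcted arrays, while replicates 2 and 4 lay among them. The difference was -0.42 ± 0.28 (SE, limma adjusted p = 0.599), with a 95% interval from -1.05 to 0.20. Its partner subunit Cpn2, measured on 4 infarcted and 3 sham control arrays, had a difference of -1.09 ± 0.40 (adjusted p = 0.301). The 4 tested liver probes, of Ttr, Apoa1 and Serpina1a, were lower on the infarcted arrays too, with a median of -1.47 and 0 called, and the part of liver RNA in the values was not tested.

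The last 2 members were near the dim end of the arrays. Cpz, an extracellular enzyme with a frizzled-like domain that binds Wnt proteins, had levels of -2.21, -2.80, -3.15 and -1.74 on the infarcted arrays, against a single sham control value of -2.59 on replicate 3. Cpa3 had levels of -2.19, -2.77 and -2.78 on infarcted replicates 1 to 3, against a single sham control value of -2.19 on replicate 1. The one sham control value lay within the infarcted range for Cpz and just below the highest infarcted value for Cpa3. The recovered signals of both were 144 or less, and the reason for a missing value is not stated in the sources used here, so no fold is given.

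Other mast cell genes were measured beside Cpa3. Of 16 probes for 14 mast cell markers, Cpa3 among them, 3 had no value on any array, those of Mcpt1, Fcer1a and 1 of 3 Tpsb2 probes. The 8 tested probes had a median difference of -0.26, with 3 positive, 5 negative and 0 called. The chymase Cma1 stood at -0.35 with overlapping groups, and Kit, the stem cell factor receptor, at 0.41 (limma adjusted p = 0.64 for both). The mean level of the tested markers per array was -1.57 to -1.16 in infarcted hearts and -1.45 to -1.18 in sham hearts. Each mean was over the markers with a value on that array, so it was not of the same genes on every array.

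**Figure D3:**
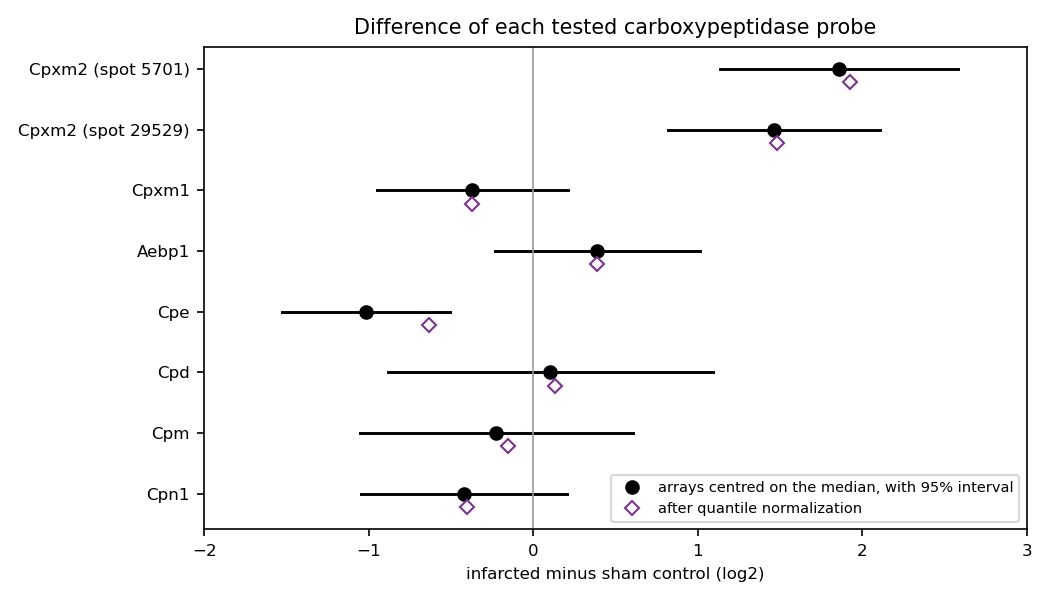
Difference between infarcted and sham control arrays on the log2 scale (horizontal axis) for the 8 tested carboxypeptidase probes, as black points with their 95% intervals and, as open diamonds, after quantile normalization. Both Cpxm2 probes lie right of 0, Cpe lies left of it and moves to -0.64 with quantile normalization, and the intervals of the other 5 probes cover 0.

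Over the whole set, 4 of 8 tested probes had a positive difference and 4 a negative one. Their median was -0.06, and -0.30 over the 6 probes outside Cpxm2, against -0.07 over all probes tested. One member probe, spot 5701 of Cpxm2, passed as higher, where 0.0632% of all probes did (13 of 20561). No member probe passed as lower, where 0.7% of all probes did (144). At an unadjusted limma p under 0.05 the 1 lower member was Cpe, where 8.84% of all probes were lower at that p (1817 of 20561). Groups did not overlap for the 2 Cpxm2 probes, with infarcted higher, where this held for 2.79% of all probes, and for Cpe, with infarcted lower, where it held for 6.33%. Since the set was built around Cpxm2 in this same contrast, its share of calls is not read against these backgrounds. The exact permutation p of Cpxm1, Aebp1, Cpd, Cpm and Cpn1 ran from 0.171 to 0.886.

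The relatives of these genes outside the set gave no call. Among the other metallocarboxypeptidases listed, with Cpn2, 3 of 15 genes were on the array and their 4 tested probes were all lower on the infarcted arrays, with a median of -0.87. The 2 probes of lowest p were Cpa5, a carboxypeptidase of the digestive branch, at -1.05 ± 0.38 (SE, limma adjusted p = 0.274) and Cpn2 given above. Carboxypeptidases of other families had 5 of 6 tested probes positive, a median of 0.54 and 0 called. The 6 probes were of 4 genes, so their signs are not separate observations. Angiotensin-converting enzyme, Ace, which removes dipeptides from angiotensin and kinins, led them with 1.16 ± 0.45 and 0.58 ± 0.25 on its 2 best probes (adjusted p = 0.319 and 0.377). A further tested Ace probe stood at 0.50 ± 0.30 (adjusted p = 0.553).

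Enzymes and helpers that work before or after Cpe in prohormone processing were divided in sign. Of 10 tested probes 4 were positive and 6 negative, with a median of -0.12 and 0 called. Pam, which amidates peptides after Cpe has trimmed them, stood at 1.48 ± 0.48 with overlapping groups (SE, limma adjusted p = 0.219). Its other tested probe stood at 0.67 ± 0.38 (adjusted p = 0.526). Scg5, the chaperone of prohormone convertase Pcsk2, stood at -0.96 ± 0.34 from 4 infarcted and 3 sham control arrays (adjusted p = 0.279). Among peptide precursors and granule proteins 7 of 12 tested probes were positive, with a median of 0.12 and 0 called. The natriuretic peptide gene Nppb had the smallest p there, at 0.91 ± 0.29 (adjusted p = 0.216), followed by endothelin 3, Edn3, at 0.58 ± 0.25 (adjusted p = 0.378). Nppb was bright, and after quantile normalization it stood at 1.53 and did not pass (limma adjusted p = 0.0634).

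The peptides and receptors served by Cpm and Cpn1 were also divided. Of 10 tested probes of kinin and anaphylatoxin genes 4 were positive and 6 negative, with a median of -0.09 and 0 called. Klkb1, plasma prekallikrein, which releases kinins and is made in the liver, stood at -1.37 ± 0.33 (SE, limma adjusted p = 0.101), and complement C4b at 1.31 ± 0.42 (adjusted p = 0.216).

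Collagen genes and other genes with a discoidin domain, the partners and structural relatives of Aebp1 and Cpxm2, had 14 of 24 tested probes positive, a median of 0.09 and 0 called. Lox, which cross-links collagen, stood at 1.52 ± 0.39 (SE, limma adjusted p = 0.118), and the semaphorin receptor Nrp2 at -0.92 ± 0.23 (adjusted p = 0.115). Of 9 tested Wnt genes, listed for the frizzled-like domain of Cpz, 1 passed as higher. This was Sfrp2, a secreted Wnt modulator, at 2.48 ± 0.24 (adjusted p = 0.0067), and the other 8 had differences between -0.30 and 0.89. Next in p were Frzb at 0.89 ± 0.50 (adjusted p = 0.52) and Fzd4 at -0.29 ± 0.26 (adjusted p = 0.704).

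The patterns closest to those of Cpxm2 over the 8 arrays were sought among 10624 named probes with a value on every array, as a description. For spot 5701 the 5 highest Pearson r belonged to Pum2 (0.97), Pank2 (0.96), Cytip (0.95), Lrrc45 (0.95) and Tbcd (0.94). For spot 29529 they belonged to Ankra2 (0.96), Lox (0.96), Ccn5 (0.95), Socs4 (0.95) and Stc1 (0.94). In the same order they were spots 361, 5221, 665, 6938 and 6844 for spot 5701, and spots 7136, 8618, 13040, 11009 and 4899 for spot 29529. Whether position on the array had a part was not tested. No gene was in both lists. Points of these correlations are the same 8 arrays in 2 groups, so any probe that separates the groups scores high. Within the set, Cpe had an r of -0.78 with spot 5701 and -0.89 with spot 29529, and Cpxm1 had -0.71 and -0.51.

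Markers of other cell types were read beside Cpxm2. In whole-heart RNA more cells of a type and more RNA per cell cannot be told apart. Of 10 tested macrophage probes 9 were positive, with a median difference of 0.90 and 0 called, and 1 Adgre1 probe had no value on any array. The mean level of the macrophage markers per array was 1.21 to 1.64 in infarcted hearts and 0.36 to 0.86 in sham hearts, without overlap. How often the mean of a list separates the groups was not worked out. Taken singly, 4 of the 10 probes had infarcted levels all above the sham control levels, where 2.79% of all probes did. Of 13 tested fibroblast probes 5 were positive and 8 negative, with a median of -0.05 and 0 called. After quantile normalization their median was 0.08, with 0 called, so its sign depended on the normalization. The mean level of the fibroblast markers was 1.80 to 2.08 in infarcted hearts and 2.02 to 2.31 in sham hearts, and 1 of 3 Ddr2 probes had no value on any array. Fap had a value on 3 sham control arrays, so these means were not of the same genes on every array. The part of these cells in the Cpxm2 difference was not tested. Endothelial markers had 7 of 10 tested probes positive with a median of 0.27 and 1 called as lower, Ramp2, at -3.05 ± 0.31 from 4 infarcted and 3 sham control arrays (SE, limma adjusted p = 0.01). Markers of mesothelium and epicardium had 3 of 3 tested probes positive, with a median of 0.38 and 0 called. Msln had a value on 4 infarcted arrays, with a mean level of 0.08, and on 0 sham control arrays, so it could not be tested. Lrrn4, with 2 infarcted and 3 sham control values, could not be tested either.

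**Figure D4:**
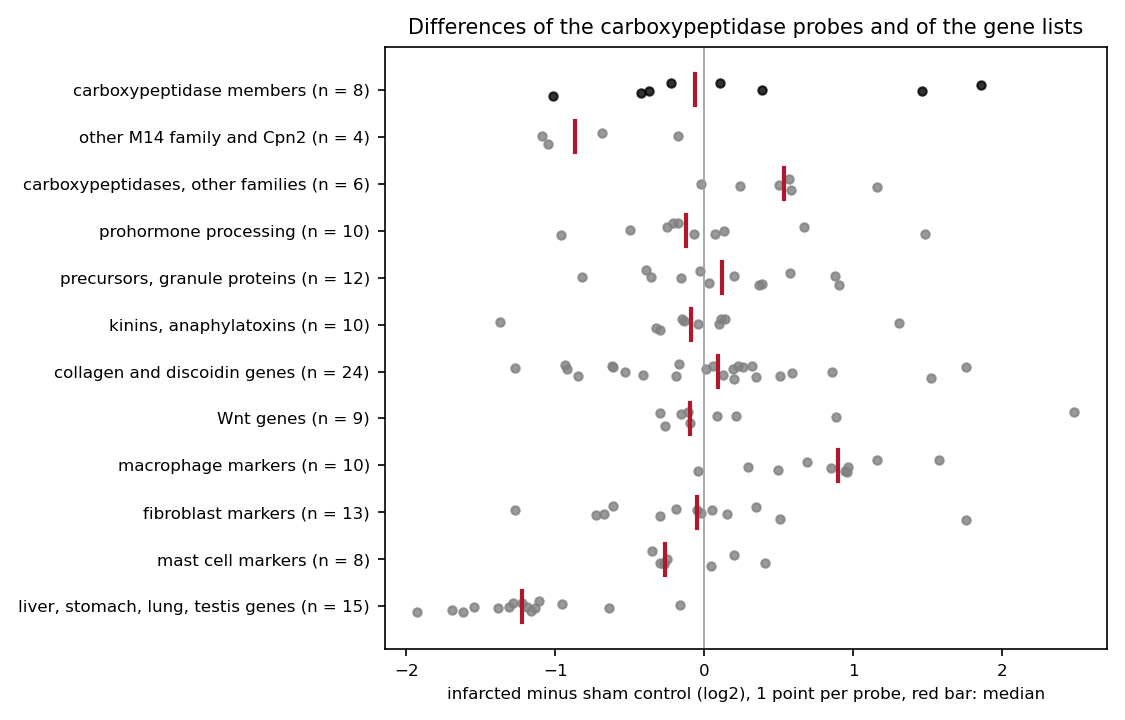
Difference between infarcted and sham control arrays on the log2 scale (horizontal axis) for each tested probe of the carboxypeptidase set (black) and of the gene lists (grey), with the median of each as a red bar and the number of probes in brackets. The macrophage markers centre on 0.90 and the liver, stomach, lung and testis genes on -1.22, while the carboxypeptidase probes run from -1.02 for Cpe to 1.86 for Cpxm2.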

How the data were processed

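The authors deposited a table of log2 values for 33600 spots on 8 arrays. Per the labels, heart RNA carried the red dye and the reference pool the green dye, 30 µg of RNA each. Background correction, flags, scanner software and normalization are not stated there. The values are not ratios as the tests had assumed. Within each of 48 blocks of 700 spots, 2 to the power of the value times 1 constant became whole within 0.001, from 42 to 65466, where a 16-bit image has 65536 steps. Missing values were left missing.

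Probes were named through the supplied platform table, where 18179 had 1 gene symbol, 87 several, and 15334 were not listed. Each array was centred on its median. Probes with at least 3 values in each group were tested singly with limma 3.58.1 in R 4.3.3, with Benjamini-Hochberg adjustment over 20561 probes. Fold changes are infarcted minus sham control, and the fit was tested on simulated data. Each array is 1 heart, and their number limits the precision. Replicate arrays were not copies (r at most 0.958). Named genes were all members, called probes and the 2 of lowest p in each list of related genes, and the 5 most like each Cpxm2 probe. Cell type and tissue markers were named after their values were seen. The set, lists and tests were chosen with earlier results of these data known. Gene positions and promoter windows are from RefSeq, GRCm38.p6. The 70-mer probe sequences were not used here.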

Additional observations from a re-analysis of the deposited data

How the results depend on the processing

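The level marking off the top percentile of values ran from 5.05 to 5.24 over the infarcted arrays. Over the sham control arrays it ran from 5.65 to 6.31, so the groups did not overlap in this width. Beyond the normalizations given, its part in the excess of lower calls and in bright probes such as Cpe was not tested. The count of called probes, 13 higher and 144 lower, moved widely. It was 5 and 30 with quantile normalization, 81 lower with scale normalization and 81 with cyclic loess, 232 lower among probes above the array median, 89 lower with probes averaged by gene, and 37 and 374 with array weights. It was 6 and 44 for signals without block scaling, and 43 and 1166 without sham control replicates 2 and 4, both settings chosen after seeing the data. Leaving out 1 array gave 2 to 37 higher and 1 to 653 lower. With the replicate number as a block the counts were 1 and 0, with 2531 probes at an unadjusted p under 0.05. The correlations of the deviations of same-numbered arrays were 0.035, 0.31, -0.09 and -0.20. Those of arrays with different numbers ran from -0.20 to 0.33. Such values cannot decide whether same-numbered arrays shared a batch, which was not tested. With that block 0 members passed, and each Cpxm2 probe had an adjusted p of 0.167.

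The call of Cpxm2 spot 5701 was made in 10 of 21 alternatives, with differences from 1.66 to 2.10. It missed the threshold with quantile normalization (adjusted p = 0.0702), scale normalization (0.0502) and cyclic loess (0.0532), where 0 members were higher, and 0 were higher without block scaling. It missed in 6 of 8 fits that left out 1 array, those without any one infarcted array or sham control replicate 1 or 3, where 0 to 2 members were higher and 0 to 1 lower over the 8 fits. Spot 29529 passed in 3 of 20 alternatives and Cpe in 4 of 21. With array weights, and without sham control replicates 2 and 4, 2 members were higher and 1 lower, and among probes above the array median 1 was lower. Both Cpxm2 probes kept their direction in every alternative run, as did Cpe, Cpxm1, Aebp1 and Cpn1. Cpd turned to -0.067 with array weights, -0.18 without block scaling, -0.036 without infarcted replicate 2 and -0.30 without sham control replicate 1, and ran from -0.30 to 0.40 over the fits that left out 1 array. Cpm ran from -0.44 to 0.13 over those fits and turned without sham control replicate 1. The cause was not tested. The median of the members, -0.06, ran from -0.22 to 0.06 over the alternatives and turned positive without infarcted replicate 1 (0.06) and without sham control replicate 3 (0.05).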
